A study of Mus musculus with 8 samples.

Results

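Genes of the thymocyte lineage and of T cell receptor (TCR) signalling were followed through RNA-Seq libraries of a thymic epithelial cell line before and after contact with thymocytes. They were taken from a list of 41 gene symbols. Of these, 32 were found among the 24052 gene symbols of the deposited counts, and 9 of the listed genes were not analysed here. The 32 fell into 6 roles, which were transcription factors (10 genes), receptor gene recombination and the pre-TCR (2), TCR chains and coreceptors (2), TCR-proximal signalling (7), surface receptors (9) and other lymphoid genes (2).

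The cells were mTEC 3.10, an mTEC (medullary thymic epithelial cell) line of the mouse, and its clone E6, which carries Crispr-Cas9 mutations of *Aire*, the autoimmune regulator. The labels give clone E6 as *Aire* +/-, while the methods of the study describe mutations in both alleles. Both cell types were sequenced before adhesion, in culture alone, and after adhesion, which was a co-culture of 12 h with 50 thymocytes per mTEC, with 2 libraries for each of the 4 conditions and 8 in all. The thymocytes came from the thymus of young female C57BL/6 mice. After co-culture the non-adherent thymocytes were washed off with buffer and the mTECs were released with trypsin, and no cell sorting is described between this step and RNA extraction. E6 is a single clone, so a difference of E6 from WT cannot be assigned to *Aire* rather than to the clone. No label says that the 2 libraries of a condition came from separate cultures, so their spread may be technical. The labels give 24 h of culture for WT after adhesion replicate 2, E6 before adhesion replicate 1 and E6 after adhesion replicate 1, and 12 h for the other libraries. The protocol text of the E6 libraries before adhesion mentions thymocytes, against their titles.

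A thymocyte develops in the thymus from a progenitor that rearranges its receptor genes, first tests a receptor beta chain in the pre-TCR and then carries a full TCR. The TCR passes its signal through kinases such as ZAP-70 to the membrane adaptor LAT. *Tcf7*, *Bcl11b* and *Gata3* are transcription factors that commit the progenitor to the T lineage. The mTECs of the thymus present self antigens to these cells and are known for expressing small amounts of many tissue-restricted genes.

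Counts on genes ranged from 13506610 to 20145154 per library, where 3 counts, taken as the floor of detection, are worth 0.149 to 0.222 CPM, the read count scaled by library size. The share of counted reads that fell on genes was 66.7% in WT after adhesion replicate 1 and 75.7 to 78.8% in the other libraries. In that library levels also fell by 0.46 on the log2 scale per 10% of GC content, against -0.02 to 0.13 in the others. The epithelial markers *Epcam* and *Krt8* were at 537 to 643 CPM and at 1377 to 2040 CPM. *Foxn1*, the thymic epithelial transcription factor, was at 11.1 to 14.8 CPM, while *Krt5* was at no more than 1.02 CPM. These genes are from a list of 15 thymic epithelium markers, of which 5 had no count before adhesion. The sum of the list was 3333 CPM in WT after adhesion replicate 1 and 4595 to 5106 CPM in the other libraries. *Aire* itself had 0 counts in 6 libraries and 3 counts in WT and E6 after adhesion, replicates 2, so its counts do not check the genotype.

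Without thymocytes, most of these genes were silent or nearly so. Of the 32 genes, 28 had a mean under 1 CPM over the 4 libraries before adhesion, and 13 of them had no count at all in those libraries. The other 4 were *Ets1*, *Zbtb7b*, *Gata3* and *Lef1*, which the epithelial line itself transcribed. Summed over the 28 genes, the level was 1.58 and 1.69 CPM in the WT libraries before adhesion and 37.3 and 23.2 CPM after it. In E6 the sums were 1.39 and 0.75 CPM before adhesion and 196.9 and 159.0 CPM after it. No library after adhesion overlapped with a library before adhesion, and the E6 libraries after adhesion lay above those of WT. The mean sum was 18.5 times higher after than before adhesion in WT and 167 times in E6, and after adhesion it was 5.89 times higher in E6 than in WT. In a separate assay that counted adhered thymocytes per mTEC, the paper reported lower adhesion to E6 than to WT. How the sums relate to that assay was not tested. The 28 genes were picked by their low level before adhesion in these same libraries. The ratios of after to before thus follow in part from that choice. Over all 32 genes these ratios were 1.19 in WT and 2.13 in E6, and E6 over WT after adhesion was 1.94. For the 28 genes, the ratio of E6 to WT after adhesion was 4.26 among libraries with 12 h of culture. Among those with 24 h it was 8.50, with 1 library on each side.

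**Figure D1:**
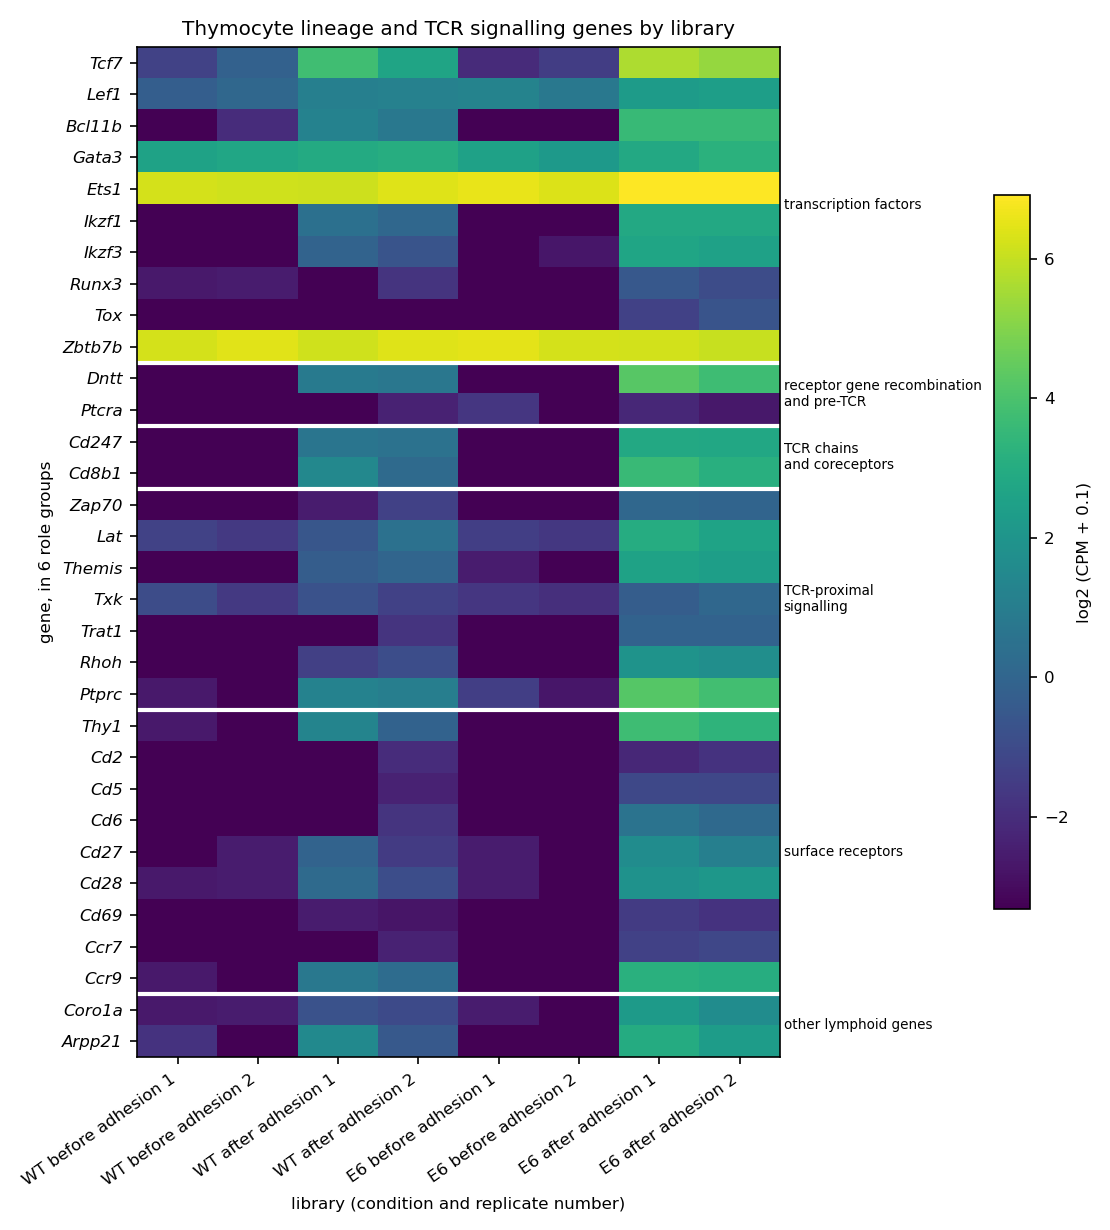
Heat map of log2 (CPM + 0.1) for the 32 genes (rows, in 6 role groups) in the 8 libraries (columns). *Ets1* and *Zbtb7b* were bright in all 8 columns, while most other rows were dark before adhesion, lighter in the WT columns after adhesion and brightest in the E6 columns after adhesion.

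In the averaged contrast of after against before adhesion, 18 of the 25 genes that passed the filter on low counts were DE and all 18 were higher, where 1.79% of the 11672 tested genes were DE and higher. DE stands for a Benjamini-Hochberg FDR under 0.05 in edgeR's quasi-likelihood test together with a fold change of at least 1.5. The other 7 genes were too low to be tested. Of the 25 tested genes, 21 were under 1 CPM before adhesion and passed the filter through the libraries after adhesion, so that a rise in them follows in part from the filter. Every library after adhesion was above every library before it for 19 of the 25 genes, against 3.82% of all tested genes. The count of DE genes was 9 without E6 after adhesion replicate 1 and 12 to 21 when any other library was left out.

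In E6 alone 17 of the 25 genes were DE and higher (1.93% of all tested genes), and in WT alone none was (0% of all tested genes). The lowest FDR of the 25 in WT was 0.216, although 19 of them had an unadjusted p under 0.05 in edgeR, against 7.48% of all tested genes. With DESeq2, 9 of the genes were DE in WT. The E6 count was 0 without any 1 of the 4 E6 libraries, and the WT count was 14 without WT after adhesion replicate 1 and 17 without replicate 2. The median log2 FC of the 25 genes was 4.16 in WT and 7.20 in E6, beside 0.02 and -0.02 over all tested genes. With the genes that had no count before adhesion set at their lower bound, 10 in WT and 12 in E6, the medians were 3.06 and 6.28. The bound takes 3 counts, summed over the 2 libraries, for a condition in which a gene had none. A test of the difference between the E6 and WT adhesion effects called none of the 25 genes, with 5 at an unadjusted p under 0.05, against 2.54% of all tested genes, and none with DESeq2. Without WT after adhesion replicate 1 it called 1 gene, *Tcf7*, and without replicate 2 it called 3, *Tcf7*, *Bcl11b* and *Lat*. For the 8 tested genes with no count before adhesion in either cell type the test has no baseline and says nothing of their difference.

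The thymus holds other blood cells, and their markers were read beside these genes. The sum of all 15 macrophage and dendritic cell markers had a mean of 76.2 CPM before and 65.8 CPM after adhesion in WT, and of 66.0 and 84.1 CPM in E6. Most of it came from *Csf1r* and *Cd14*, which the line transcribed without thymocytes and which had averaged log2 FCs of -0.31 and -0.23, not DE. Of the 15 markers, 11 were under 1 CPM before adhesion, and as they were picked for this, a rise in them follows in part from the choice. The sum of these 11 was 0.0607 and 0 CPM in WT before adhesion, 3.62 and 3.77 CPM in WT after, 0.347 and 0.161 CPM in E6 before and 19.9 and 17.8 CPM in E6 after. Of the 11 of these 15 markers that were tested, 7 were DE and higher in the averaged contrast, among them *Lyz2*, a lysozyme of myeloid cells. Markers near 0 before adhesion could be tested only through the libraries after it, so this number follows in part from the filter. *Fcgr1*, an Fc receptor of macrophages, had no count in any library, and *Clec9a*, a dendritic cell receptor, reached 0.06 CPM in 1 library. Of the B cell genes, *Pax5* and *Ms4a1* had no count in any library, and of the natural killer cell genes *Ncr1*, *Klrb1c* and *Nkg7* had none, nor had the haemoglobin genes. Other markers appeared after adhesion, among them *Cd79b*, a chain of the B cell receptor, with 8 and 2 counts in the E6 libraries, *Alas2* of erythroid cells with 2 and 3, and *Pf4* of platelets with 3 and 2, all with none before. None of the 2 B cell, 1 natural killer cell and 2 erythroid and platelet genes tested was DE in the averaged contrast. Mean B cell marker sums before and after adhesion were 115.4 and 127.4 CPM in WT and 107.2 and 98.1 CPM in E6. Natural killer cell sums were 5.14 and 4.93 CPM in WT and 2.82 and 2.24 CPM in E6. Erythroid and platelet sums were 23.6 and 26.7 CPM in WT and 36.9 and 48.2 CPM in E6. Before adhesion, 4 of the 8 B cell, 5 of the 7 natural killer cell and 9 of the 12 erythroid and platelet genes had no count. The 3 sums thus rest mostly on genes that the line transcribed without thymocytes, and they do not show whether such cells were present. *Pecam1*, carried by endothelium, platelets and leukocytes, was DE and higher (log2 FC 6.13, SE 0.93, FDR = 0.0469). It was 1 of 3 tested genes in a list of 9 fibroblast and endothelium markers. The other tested genes of that list had averaged log2 FCs of 0.22 and 0.44 and were not DE. The part of other blood cells in the sums of the thymocyte genes was not tested. In such bulk libraries fewer cells of a type and less RNA per cell cannot be told apart, nor can RNA of adhering thymocytes and transcription in the mTECs themselves.

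**Figure D2:**
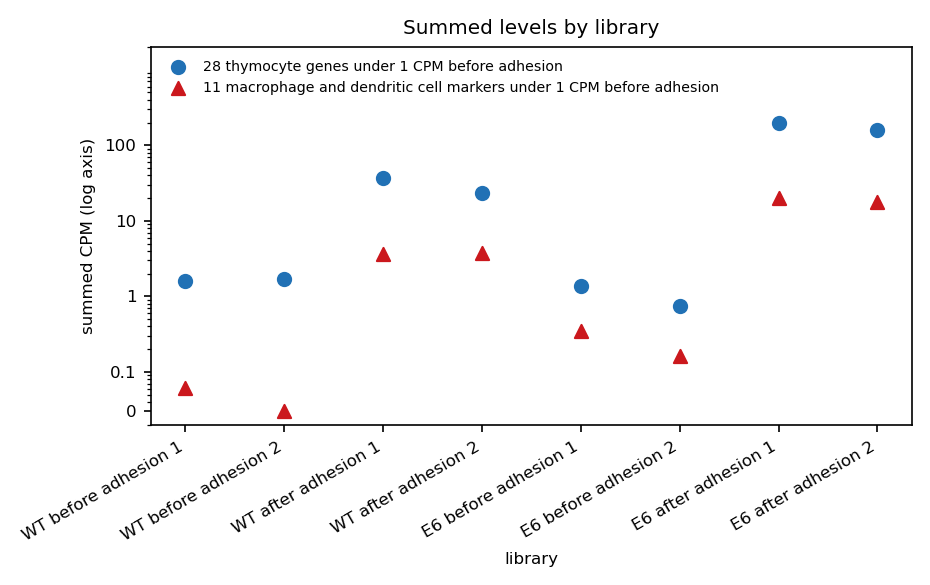
Summed CPM (log axis, 0 drawn at the bottom tick) in each library of the 28 thymocyte genes under 1 CPM before adhesion (circles) and of 11 macrophage and dendritic cell markers under 1 CPM before adhesion (triangles). Both sums were lowest before adhesion and highest in the E6 libraries after adhesion, at 159.0 and 196.9 CPM for the thymocyte genes and 17.8 and 19.9 CPM for the markers.

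The stretches just before the RefSeq transcription starts of 3 genes are shown because these genes went from at most 0.28 CPM in every library before adhesion to some of the highest levels after it. They are the 250 bases before the most upstream RefSeq start on GRCm38.p6, read 5′ to 3′ on the strand of the gene. *Ptprc* lies at chr1:138175306-138175555 on the minus strand, *Dntt* at chr19:41029025-41029274 on the plus strand and *Bcl11b* at chr12:108003415-108003664 on the minus strand. By GENCODE the gene of *Ptprc* starts at 138175708 and that of *Bcl11b* at 108003602, so that the *Ptprc* window lies within the gene, downstream of that start, and the *Bcl11b* window spans it. Capitals mark matches, on either strand, to CTTTGA or CTTTGT, the core bound by TCF and LEF factors, to AGGAAG, a core of ETS factors, and to TGTGGT, a core of RUNX factors.
Ptprc: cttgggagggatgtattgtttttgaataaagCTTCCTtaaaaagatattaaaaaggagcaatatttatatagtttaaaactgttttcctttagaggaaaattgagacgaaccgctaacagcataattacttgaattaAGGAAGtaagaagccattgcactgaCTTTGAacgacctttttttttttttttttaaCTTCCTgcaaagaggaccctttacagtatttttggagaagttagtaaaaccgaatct
Dntt: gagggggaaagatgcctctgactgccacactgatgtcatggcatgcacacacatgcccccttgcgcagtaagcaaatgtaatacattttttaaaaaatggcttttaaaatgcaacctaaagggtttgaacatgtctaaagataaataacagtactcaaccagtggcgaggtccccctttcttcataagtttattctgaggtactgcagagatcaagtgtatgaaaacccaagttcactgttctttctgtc
Bcl11b: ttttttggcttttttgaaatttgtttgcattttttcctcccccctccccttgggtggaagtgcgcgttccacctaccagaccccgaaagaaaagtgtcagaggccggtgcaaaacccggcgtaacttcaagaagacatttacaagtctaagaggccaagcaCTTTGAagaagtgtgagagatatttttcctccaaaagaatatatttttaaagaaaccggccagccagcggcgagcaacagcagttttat
The window of *Ptprc* held CTTTGA 88 bases before the start and 3 matches to AGGAAG, that of *Bcl11b* held CTTTGA 89 bases before the start, and that of *Dntt* held none of these letters. *Tcf7* was left out because an open reading frame of 165 bases ran through its window up to the start.

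Of the 28 genes under 1 CPM before adhesion, 19 had such a window in RefSeq. A TCF/LEF match stood in 8 of the 19 (42.1%), against 27.8% of 27025 gene windows. An AGGAAG match stood in 7 (36.8%, against 29.2%) and a RUNX match in 3 (15.8%, against 14.2%). AGATAA, a core of GATA factors, stood in 2 (10.5%, against 10.2%) and CAGCTG, an E-box, in 2 (10.5%, against 12.7%). The 19 windows held a median of 5 CG dinucleotides, where all windows held 6, and ranged from 1 in *Ptcra*, *Themis* and *Trat1* to 37 in *Tcf7* and 44 in *Ikzf1*. No test was made of these shares.

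Among the 10 transcription factors, 5 of the 8 tested were DE and higher in the averaged adhesion contrast, *Tcf7*, *Lef1*, *Bcl11b*, *Ikzf1* and *Ikzf3*, and none was lower. *Tcf7* encodes TCF-1, which sets up and maintains T cell identity. Its level was 0.304 and 0.810 CPM in WT before adhesion, 13.5 and 6.19 CPM in WT after, 0.139 and 0.268 CPM in E6 before and 50.8 and 39.1 CPM in E6 after. The libraries before and after adhesion did not overlap in either cell type, and the averaged log2 FC was 5.92 (SE 0.41, FDR = 0.00509). It was 17.2 times higher after than before adhesion in WT and 213 times in E6.

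*Bcl11b*, which is required for T lineage commitment, had 2 counts in WT and none in E6 before adhesion. After adhesion it was at 2.20 and 1.60 CPM in WT and at 11.7 and 11.8 CPM in E6. The rise was at least 105 times in E6, and 27.6 times in WT, where the 2 counts before adhesion allow 7.35 to 233 times (95% counting interval). The averaged contrast gave it an FDR of 0.00509. *Ikzf1* and *Ikzf3*, the lymphoid zinc finger factors Ikaros and Aiolos, had 0 and 1 counts before adhesion over 4 libraries, and 5.61 to 7.06 CPM in E6 after adhesion.

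The 4 genes that the line transcribed without thymocytes were all transcription factors, and of the 4 *Lef1* alone was DE in the averaged contrast. *Ets1*, a factor of lymphoid and many other cells, was at 77.0 and 72.8 CPM in WT before adhesion, 70.4 and 85.5 CPM in WT after, 93.9 and 82.4 CPM in E6 before and 120.3 and 119.1 CPM in E6 after. The WT groups overlapped and the E6 groups did not, and the averaged log2 FC of 0.25 (SE 0.09, FDR = 0.409) was not DE. *Zbtb7b*, which encodes the helper lineage factor ThPOK, was at 75.6 and 86.8 CPM in WT before adhesion, 72.6 and 83.9 CPM in WT after, 88.8 and 75.7 CPM in E6 before and 74.3 and 65.4 CPM in E6 after. Its log2 FC of -0.14 (SE 0.10, FDR = 0.675) was the only 1 of the 25 under 0. In WT alone its sign turned with the GC correction, from -0.05 to 0.15.

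*Gata3* works both in early T cells and in several epithelia. It was at 5.83 and 6.63 CPM in WT before adhesion, 7.45 and 8.32 CPM in WT after, 5.69 and 4.44 CPM in E6 before and 7.18 and 9.20 CPM in E6 after. Both pairs of groups were apart, but the log2 FC of 0.52 (SE 0.15, FDR = 0.228) did not pass. *Lef1*, the close relative of *Tcf7*, was at 0.728 and 0.958 CPM in WT before adhesion, 2.06 and 2.18 CPM in WT after, 2.29 and 1.61 CPM in E6 before and 4.79 and 5.26 CPM in E6 after. Its averaged log2 FC was 1.36 (SE 0.21, FDR = 0.0231), with a like rise of 1.34 in WT and 1.38 in E6. The *Lef1* call was lost when any 1 of the 6 libraries other than the WT libraries after adhesion was left out.

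**Figure D3:**
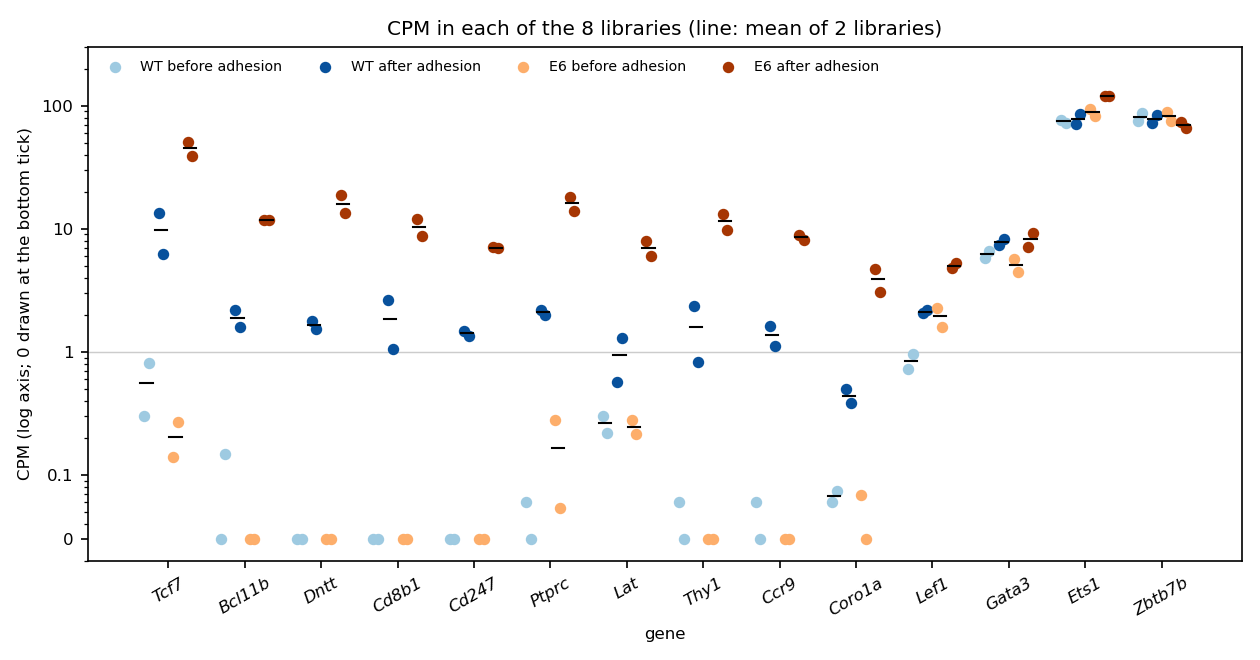
CPM (log axis, 0 drawn at the bottom tick) of 14 genes in each of the 8 libraries, with a line at the mean of each pair of libraries in which both values are above 0. For the first 10 genes both E6 libraries after adhesion lay above all other libraries, whereas the 4 genes on the right, *Lef1*, *Gata3*, *Ets1* and *Zbtb7b*, were above 0.7 CPM in all 8.

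*Dntt* encodes TdT, which adds untemplated bases at the joints of rearranging receptor genes and is switched off when rearrangement ends. It had no count in any library before adhesion. After adhesion it was at 1.77 and 1.55 CPM in WT and at 18.7 and 13.4 CPM in E6. The rise was at least 12.9 times in WT and at least 144 times in E6, and the averaged contrast gave an FDR of 0.00509. *Ptcra*, the invariant alpha chain of the pre-TCR, stayed at the floor. It had 2 counts in WT after adhesion, 3 in E6 before and 3 in E6 after, and was not tested.

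Both genes of the TCR chains and coreceptors were DE and higher. *Cd247*, the zeta chain that carries the signalling motifs of the receptor, had no count before adhesion, 1.49 and 1.35 CPM in WT after and 7.12 and 6.93 CPM in E6 after. It was at least 11.1 times higher in WT and at least 62.5 times in E6 (averaged FDR = 0.00509). Its exons share 3007 bases with *Pou2f1* on the opposite strand, and the strand setting of the counting is not stated in the sources used here, but the 4 libraries before adhesion gave it no count.

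*Cd8b1*, the beta chain of the CD8 coreceptor, likewise had no count before adhesion. It was at 2.62 and 1.06 CPM in WT after adhesion and at 12.0 and 8.72 CPM in E6 after. The rise was at least 13.4 times in WT and at least 92.6 times in E6 (averaged FDR = 0.0110). On the log2 scale the 2 WT libraries after adhesion differed by more than those of E6, as for many of these genes. The WT values rest on fewer counts.

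Of the 7 genes of TCR-proximal signalling, 4 were DE and higher, *Ptprc*, *Lat*, *Themis* and *Rhoh*, and *Zap70*, *Txk* and *Trat1* were not DE. *Ptprc* encodes CD45, the phosphatase on the surface of nucleated blood cells that keeps Src-family kinases ready. It was at 0.061 and 0 CPM in WT before adhesion, 2.20 and 1.98 CPM in WT after, 0.277 and 0.054 CPM in E6 before and 18.3 and 14.0 CPM in E6 after. In E6 it was 107 times higher after adhesion, where the 5 counts before adhesion allow 45.4 to 330 times, and its log2 FC in E6 ran from 5.82 to 8.04 with a library left out. Over both cell types the averaged log2 FC was 6.17 (SE 0.41, FDR = 0.00509). CD45 is carried by macrophages and dendritic cells too, whose markers moved in the same libraries, and their part in its level was not tested.

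*Lat*, the adaptor on which the TCR signal assembles, was present at a trace before adhesion, with 0.304 and 0.221 CPM in WT and 0.277 and 0.214 CPM in E6. After adhesion it was at 0.567 and 1.31 CPM in WT and at 7.96 and 5.97 CPM in E6. The averaged log2 FC was 3.32 (SE 0.36, FDR = 0.00767), and the rise was 3.78 times in WT and 28.8 times in E6. *Themis*, a regulator of TCR signal strength in developing thymocytes, had 1 count in all before adhesion. It was at 0.709 and 0.919 CPM in WT after adhesion and at 5.92 and 5.26 CPM in E6 after, at least 6.37 times higher in WT (averaged FDR = 0.00528).

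*Zap70*, the kinase that docks on the zeta chain, had no count before adhesion, 7 counts in WT after and 31 in E6 after (averaged FDR = 0.0895). *Trat1*, a TCR-associated adaptor, had 4 counts in WT and 28 in E6 after adhesion and none before (FDR = 0.231). *Txk*, a Tec-family kinase, had 10 and 6 counts in WT and E6 before adhesion and 13 and 28 after (FDR = 0.366).

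Of the 9 surface receptors, 4 of the 5 tested were DE and higher, *Thy1*, *Ccr9*, *Cd28* and *Cd27*. *Thy1*, the glycoprotein that marks mouse thymocytes, was at 0.061 and 0 CPM in WT before adhesion, 2.34 and 0.822 CPM in WT after, 0 and 0 CPM in E6 before and 13.3 and 9.85 CPM in E6 after. The rise was at least 103 times in E6 (averaged FDR = 0.00792). *Ccr9*, a chemokine receptor by which thymocytes and their progenitors follow CCL25, was at 0.061 and 0 CPM in WT before adhesion, 1.63 and 1.11 CPM in WT after, 0 and 0 CPM in E6 before and 8.98 and 8.12 CPM in E6 after.

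The rise of *Ccr9* was at least 76.2 times in E6 (averaged FDR = 0.00509). *Cd28*, the costimulatory receptor of T cells, had 2 counts in WT and 1 in E6 before adhesion. It was at 1.06 and 0.435 CPM in WT after and at 3.65 and 4.12 CPM in E6 after, with an averaged log2 FC of 4.98 (SE 0.57, FDR = 0.00880). *Cd6*, an adhesion receptor, had 4 counts in WT and 40 in E6 after adhesion and none before, and was not DE (FDR = 0.211).

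The other 4 surface receptors, *Cd2*, *Cd5*, *Cd69* and *Ccr7*, had no count before adhesion and were too low to be tested. In E6 after adhesion they had 5, 12, 7 and 11 counts over both libraries, and in WT after adhesion 3, 2, 2 and 2. *Cd69* is an early sign of TCR stimulation, and *Ccr7* guides mature thymocytes to the medulla. As low were 2 of the transcription factors, with 17 counts for *Runx3*, a factor of the cytotoxic lineage, and 14 counts for *Tox* in E6 after adhesion.

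The 2 other lymphoid genes were both DE and higher. *Arpp21*, whose transcript is abundant in immature thymocytes and in brain, was at 0.182 and 0 CPM in WT before adhesion, 2.77 and 0.629 CPM in WT after, 0 and 0 CPM in E6 before and 7.72 and 4.96 CPM in E6 after. It was at least 56.4 times higher in E6 (averaged FDR = 0.0286). As for *Lef1*, the calls of *Arpp21* and of *Cd27* were lost when any library other than the WT libraries after adhesion was left out. *Coro1a*, an actin regulator of leukocytes, was at 0.061 and 0.074 CPM in WT before adhesion, 0.496 and 0.387 CPM in WT after, 0.069 and 0 CPM in E6 before and 4.73 and 3.05 CPM in E6 after. Its averaged log2 FC was 4.63 (SE 0.55, FDR = 0.0105).

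Levels of different genes were set side by side per kb of exon. The length merges the exons of all annotated transcripts of a gene and can exceed that of its mRNA, so the order is approximate. In E6 after adhesion *Tcf7* stood first with 17.1 CPM per kb, followed by *Ets1* with 14.1 and *Zbtb7b* with 12.5. *Dntt*, at 8.17 and 5.84 CPM per kb in the 2 libraries, and *Cd8b1*, at 8.11 and 5.88, came next and did not differ beyond their spread, then *Thy1* with 3.86 and *Lat* with 2.52. In WT after adhesion *Zbtb7b* led with 14.0 CPM per kb, followed by *Ets1* with 9.20, and *Tcf7* was the third with 3.76. Of the genes under 1 CPM before adhesion, *Tcf7* and *Cd8b1* were the highest in WT, with 3.76 and 1.24 CPM per kb. *Ptprc*, whose exons span 18313 bases, was at 0.880 CPM per kb in E6.

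The libraries after adhesion were then compared between the cell types. In E6 17 of the 25 genes were DE and higher than in WT (4.85% of all tested genes), and none was lower. Among them were 6 of 8 transcription factors, *Dntt*, *Cd247*, *Cd8b1*, 4 of 7 genes of proximal signalling, 3 of 5 surface receptors and *Coro1a*. Both E6 libraries were above both WT libraries for 23 of the 25 genes, against 26.8% of all tested genes. Genes near 0 in the other libraries, such as *Rhoh*, *Coro1a*, *Cd6* and *Trat1*, passed the filter on low counts through the E6 libraries after adhesion, so that these counts too follow in part from the filter. The median log2 FC of the 25 was 2.65, beside -0.02 over all tested genes. The count was 0 without either E6 library after adhesion and 0 when the 4 libraries compared were fitted alone, with 17 to 22 genes at an unadjusted p under 0.05 in these fits (29.7% of all tested genes with 8 libraries).

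**Figure D4:**
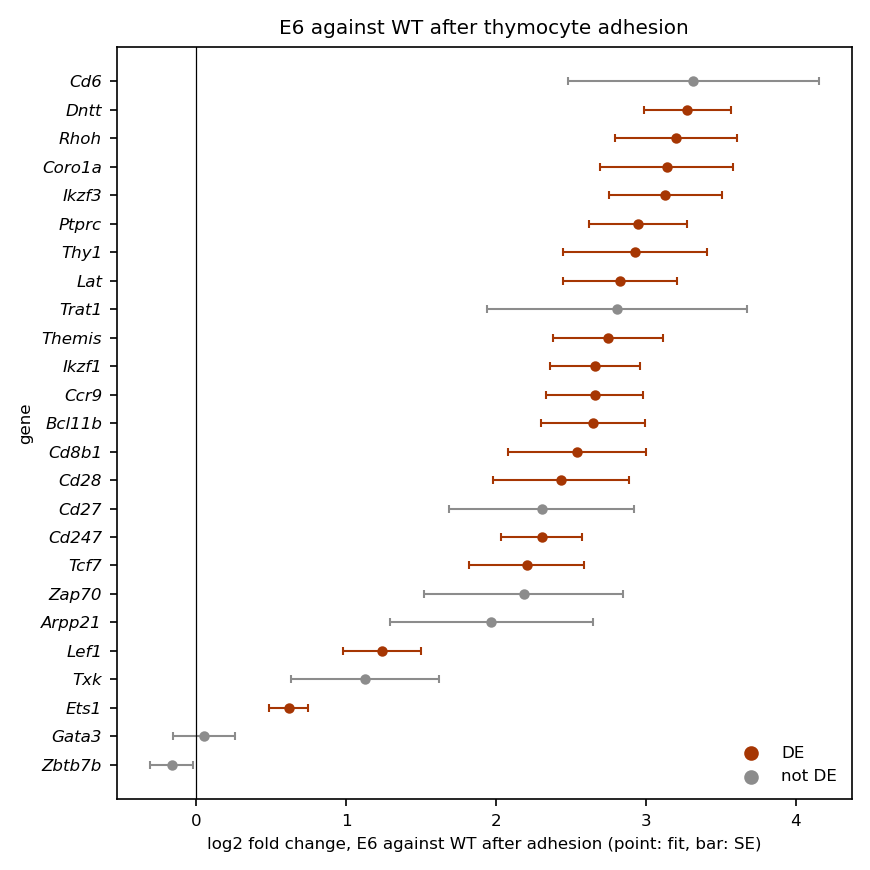
Log2 fold change of E6 against WT after adhesion (x axis, point) with its SE (bar) for the 25 tested genes (y axis), with the DE genes in brown and the others in grey. All but *Lef1*, *Txk*, *Ets1*, *Gata3* and *Zbtb7b* lay between 1.97 and 3.32.

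For the 21 tested genes under 1 CPM before adhesion, the level in E6 over WT after adhesion ranged from 2.24 times in *Txk* to 10.4 times in *Cd6*, with a median of 6.46. The value of *Cd6* rests on 4 counts in WT, which allow a ratio as low as 3.76 times (95% counting interval), and its log2 FC ran from 2.61 to 7.26 with a library left out. *Dntt* was 9.79 times higher in E6 (log2 FC 3.28, SE 0.29, FDR = 0.00674) and *Rhoh*, a GTPase-like protein of TCR signalling, 9.27 times (log2 FC 3.20, SE 0.41, FDR = 0.0150). Among the lower values, *Tcf7* was 4.90 times higher (log2 FC 2.21, SE 0.38, FDR = 0.0177) and *Arpp21* 4.24 times (log2 FC 1.97, SE 0.68, FDR = 0.114). With a library left out the log2 FC of *Tcf7* ran from 1.75 to 2.89 and that of *Arpp21* from 1.22 to 3.35, so that their place in the order is not settled. Whether these ratios differ from each other was not tested.

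Of the 4 genes that the line transcribed by itself, *Lef1* (log2 FC 1.24, SE 0.26, FDR = 0.0295) and *Ets1* (log2 FC 0.62, SE 0.13, FDR = 0.0305) were DE and higher in E6 after adhesion. The *Ets1* call held in 1 and the *Lef1* call in 2 of the 8 fits with a library left out, and both were lost with the replicate block and with the 4 libraries compared alone. *Gata3* (log2 FC 0.05, SE 0.21) and *Zbtb7b* (log2 FC -0.16, SE 0.14) were not. Before adhesion none of the 25 genes was DE between E6 and WT (5.01% of all tested genes were DE), with 1 gene, *Lef1*, at an unadjusted p under 0.05 in edgeR (21.6% of all tested genes) and none DE with DESeq2. The *Lef1* log2 FC there was 1.20 (SE 0.32, FDR = 0.0752), close to its value after adhesion. *Lef1* was DE before adhesion without either WT library after adhesion and when the 4 libraries compared were fitted alone. The comparisons of E6 with WT after adhesion and of after with before adhesion share the E6 libraries after adhesion.

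The spread between the 2 libraries of a condition was compared after adhesion. Over the 17 genes with at least 5 counts in each library after adhesion, the log2 ratio of replicate 1 to replicate 2 had an SD of 0.82 in WT and 0.30 in E6. In WT it ran from -1.20 in *Lat* to 2.14 in *Arpp21*, and in E6 from -0.41 in *Txk* to 0.64 in *Arpp21*. *Cd27*, *Thy1*, *Cd8b1* and *Cd28* also stood above 1.2 in WT. The WT ratios rest on fewer counts than those of E6. *Cd27* had 12 and 5 counts in WT and 51 and 34 in E6. *Lat* had 8 and 27 in WT and 133 and 100 in E6. The library with 24 h of culture was replicate 2 in WT and replicate 1 in E6. The parts of counting error and culture time in the spread were not tested. The WT library replicate 1 is the one with the steep relation to GC content, and across these 17 genes Pearson's r of the ratio with GC content was 0.11 in WT and 0.55 in E6, over genes of the same libraries, which are not independent.

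**Figure D5:**
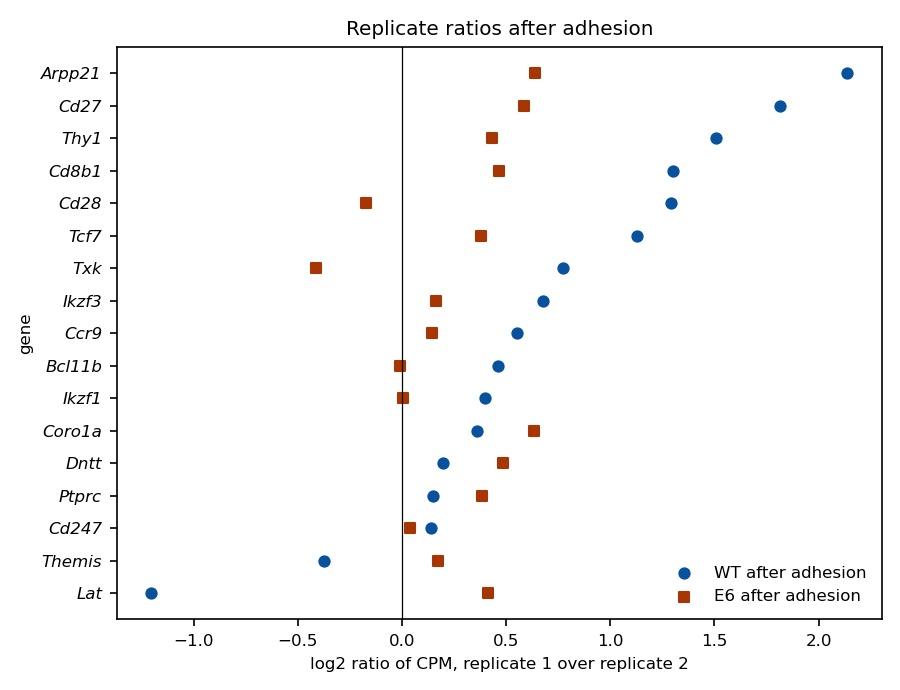
Log2 ratio of the CPM of replicate 1 to that of replicate 2 after adhesion (x axis) for 17 genes (y axis), in WT (circles) and E6 (squares). The WT points spread from -1.20 to 2.14 and the E6 points from -0.41 to 0.64.

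*Tcf7* took the largest part of the counts of the 28 genes in every library after adhesion, with 36.3% and 26.7% in WT and 25.8% and 24.6% in E6. *Dntt* took 4.75% and 6.68% in WT and 9.51% and 8.41% in E6. *Ptprc* took 5.89% and 8.56% in WT and 9.27% and 8.79% in E6. Such shares sum to a fixed total, and they were not tested.

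Other genes of the same pathways were read from 4 lists that do not hold the genes above. Of their 102 genes 73 were tested, and 23 were DE and higher after adhesion in the averaged contrast (1.79% of all tested genes) and none was lower. Genes with no count before adhesion, such as *Lcp2*, *Dock2* and *Rac2*, passed the filter on low counts only through the libraries after it. The count of 23 thus follows in part from the filter. The count was 7 without E6 after adhesion replicate 1, 8 without replicate 2, 11 or 12 without a WT library before adhesion and 11 or 14 without an E6 library before adhesion. It was 36 without either WT library after adhesion.

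Among kinases, adaptors and brakes of TCR signalling, 9 of 28 were DE, all higher. The highest after adhesion were *Fyb*, an adaptor of integrin activation (log2 FC 3.51, SE 0.43), *Grap2*, the adaptor that joins LAT to SLP-76 (7.60, SE 0.66), and *Lcp2*, which encodes SLP-76. *Lcp2* had no count before adhesion, 0.709 and 1.31 CPM in WT after and 7.42 and 5.97 CPM in E6 after. Among genes induced by TCR signals, 2 of 8 were DE, *Tnfaip3*, a brake of NF-kB signalling (log2 FC 0.94, SE 0.09), and *Egr2*, an immediate early factor (2.24, SE 0.28). The line also transcribed *Tnfaip3* without thymocytes, at 74.7 to 102 CPM before adhesion. *Egr2* was at 3.33 and 2.66 CPM in WT after adhesion and at 1.38 and 1.49 CPM in E6 after, against 0.32 to 0.55 CPM before, so that here the WT libraries stood above those of E6 (log2 FC of E6 against WT -1.05, not DE).

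Among other genes of thymocyte development 2 of 20 were DE, *Myb* (log2 FC 1.24, SE 0.17), a factor of blood progenitors that the line also transcribed, at 7.01 to 12.8 CPM before adhesion, and *Cxcr4*, a chemokine receptor of early thymocytes (5.88, SE 0.76). Among genes of the leukocyte cytoskeleton and membrane 10 of 18 were DE, and the highest were *Itgb2*, the beta chain of LFA-1 (0.83, SE 0.14), *Dock2*, an activator of Rac, and *Laptm5*, a lysosomal protein that turns over TCR chains (7.12, SE 0.74). The small fold of *Itgb2* means that it was not near 0 before adhesion, unlike *Dock2* and *Laptm5*. *Dock2* had no count before adhesion, 2.55 and 1.40 CPM in WT after and 11.1 and 9.56 CPM in E6 after. The genes of this last list are active in leukocytes in general, macrophages included.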

How the data were processed

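The 8 libraries were sequenced on an Illumina HiSeq instrument, from a stranded mRNA kit by the labels and a stranded total RNA kit by the methods of the study. The authors aligned reads to mm10 with STAR 2.5.0a and deposited counts of reads per gene from HTSeq, without normalization. The gene annotation and strand setting are not given in the sources used here. HTSeq rows that name no gene (21.2 to 33.3% of each library's counted reads) were left out, and 18 symbols written as dates in 1 library were restored from the shared gene order.

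Genes were kept by filterByExpr and scaled by TMM (factors 0.9377 to 1.0273). One mean per condition was fitted over all 8 libraries with edgeR 4.0.16 in R 4.3.3, with quasi-likelihood tests and Benjamini-Hochberg FDRs over 11672 genes. CPM are per TMM-scaled library. SEs were derived from the test as the log2 FC over the square root of F. Folds are ratios of scaled counts, with exact 95% intervals (Clopper-Pearson) that, like the floor of 3 counts, cover counting error only. The alternatives were RLE size factors, DESeq2 1.42.0, no filter, no FC limit, the replicate block, a GC correction, only the compared libraries, and each library left out. Fits were tested on simulated counts.

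The genes and lists were chosen with earlier results of these data known. Values in every library are given for the 3 genes of each role with the highest mean CPM (2 in roles of 2) and for those at 1 CPM or more before adhesion, and in each pathway list the 3 DE genes with the highest CPM after adhesion are named. *Bcl11b* was added for its sequence, and other genes were named after their values were seen. Positions and exon lengths are from GENCODE vM21 (GRCm38), and upstream sequences from RefSeq (GRCm38.p6).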

Additional observations from a re-analysis of the deposited data

How the results depend on the processing

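The 18 genes DE in the averaged adhesion contrast became 17 with the replicate block, and 17 of them stayed DE under all 6 other fits, the exception being *Lef1* under the block. Leaving out each library gave 9 to 21 DE genes, and 9 genes were DE in all 8 of these fits. In E6 the 17 became 0 to 23 with a library left out, and 17 to 23 under the other fits. In WT the count of 0 became 9 with DESeq2 and 0 to 17 with a library left out. E6 against WT after adhesion gave 17 DE genes, 0 when the compared libraries were fitted alone, 15 with the block and 0 to 22 with a library left out. Before adhesion the count was 1 with the compared libraries alone and 0 to 1 with a library left out, and for the difference of the adhesion effects it was 0 to 3 with a library left out. The 23 pathway genes became 7 to 36 with a library left out, and 18 with the block. The ratio of summed CPM over all 32 genes, after over before adhesion, was 1.19 in WT and 2.13 in E6. Without the 4 genes at 1 CPM or more before adhesion it was 18.5 and 167, and it was 1.15 to 1.23 and 1.98 to 2.31 with a library left out. Signs turned for values near 0. The *Zbtb7b* log2 FC in WT, -0.05, was 0.15 with the GC correction, 0.14 with the replicate block and GC correction, and -0.17 to 0.047 with a library left out. With a library left out, *Ets1* in WT ran from -0.10 to 0.19, *Txk* in WT from -0.19 to 0.76 and *Gata3* in E6 against WT after adhesion from -0.13 to 0.22. The causes were not tested.

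The replicate numbers were not shown to pair the libraries, since no label says that they mark a shared batch and the correlation of deviations between same-numbered libraries over 9768 genes was 0.222 for WT before and after adhesion, -0.079 for E6 and -0.047 to 0.023 for the other pairs of conditions. With 2 libraries per condition and a floor of 0.149 to 0.222 CPM, levels of the 7 untested genes could not be compared.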
